A study of Mus musculus with 45 samples.

Results

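The 6 genes Gpd1, Gpam, Agpat2, Lpin1, Dgat1 and Dgat2 encode enzymes of triacylglycerol synthesis and were followed in inguinal fat of C57BL/6J mice. They were chosen by their gene symbols, and each was read by the 1 probe that the annotation assigns to that symbol alone, so that 6 of the 13840 genes with such a probe are described. The mice came from 3 nutritional conditions of the suckling period, each sampled at 5 ages (days 5, 10, 21, 56 and 112). Control pups grew up in litters of 8 with a dam that ate a breeder diet (22 kcal % fat) freely. LUN pups (under-nutrition) also lay in litters of 8, but their dam was given 50% of what the dams of controls ate. LON pups (over-nutrition) lay in litters of 4 with a dam on a high fat diet (58 kcal % fat). From weaning onwards the 3 groups were fed alike, with a low fat chow (11 kcal % fat) up to 8 weeks of age and then with a high saturated fat diet for 8 weeks, which ended at day 112. The study's methods name male mice for the housing after weaning. Every one of the 15 groups was a single pool of RNA from 12 mice, read on 3 arrays. The spread of the 3 arrays is therefore array error, and the tests between groups of arrays hold no measure of how mice differ.

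Triacylglycerol is the fat that adipocytes store in lipid droplets. It is built on glycerol 3-phosphate, to which fatty acids are attached one after the other by enzymes of the endoplasmic reticulum and the mitochondrial outer membrane, with a phosphatase step before the last acylation. Inguinal fat of the mouse is a subcutaneous white depot that fills with lipid during suckling and again on a high fat diet, and that holds brown-like adipocytes around weaning.

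The probes of Gpd1, Dgat2, Agpat2 and Dgat1 were among the brightest of the array, with a mean signal at the 99.75, 99.19, 98.47 and 96.86 percentile of 33012 probes, whereas Lpin1 and Gpam lay at the 81.85 and 66.82 percentile. Signals of the 6 genes are quantile-normalized intensities divided by 1000, and the 3 values of a group are given from the lowest to the highest array. Levels were not compared between genes, because probes differ in brightness. Whether the arrays of different groups overlap is a description only, since the share of all probes without overlap was not counted. Over the 15 groups, the mean log2 signal of Dgat2 ranged most, by 4.25 (19-fold), from the LUN pool of day 5 to the LUN pool of day 56. Agpat2 followed with a range of 3.55 (11.7-fold), also upwards from the LUN pool of day 5. The range was 2.81 for Lpin1, 2.38 for Gpam, 2.18 for Gpd1 and 1.64 for Dgat1. Among all probes these ranges lay at the 98.56 percentile for Dgat2, 96.09 for Agpat2, 88.51 for Lpin1, 79.26 for Gpam, 72.75 for Gpd1 and 45.28 for Dgat1. In these whole-tissue samples, fewer cells of a type and less RNA per cell cannot be told apart.

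**Figure D1:**
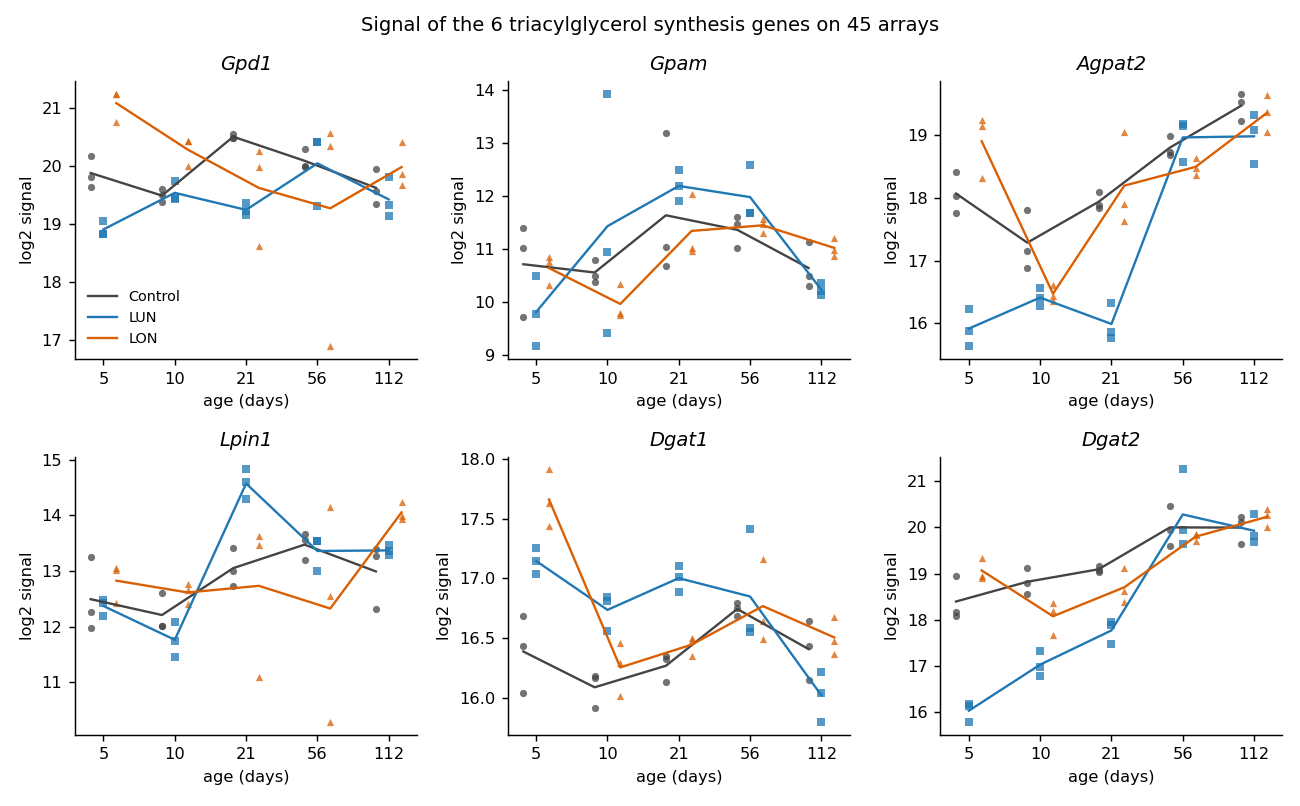
Log2 quantile-normalized signal (y axis) of each of the 6 genes on each of the 45 arrays against age in days (x axis, evenly spaced), with points for arrays and lines through the group means of Control (grey circles), LUN (blue squares) and LON (orange triangles). The LUN arrays of Agpat2 and Dgat2 lie under the Control arrays at days 5, 10 and 21 and overlap with them at days 56 and 112.

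Gpd1 is the cytosolic dehydrogenase that makes glycerol 3-phosphate from dihydroxyacetone phosphate. In Control mice its signal was 821, 928 and 1190 at day 5, 682, 742 and 801 at day 10, 1480, 1480 and 1540 at day 21, 1040, 1050 and 1300 at day 56, and 670, 784 and 1020 at day 112. The Control arrays of day 21 were above those of every other Control age. Equal values arise because quantile normalization gives probes of equal rank the same signal, and this probe stood close to the top rank on several arrays. In LUN mice Gpd1 read 469, 469 and 548 at day 5, 708, 720 and 877 at day 10, and 583, 616 and 675 at day 21. At days 5 and 21 all LUN arrays lay below all Control arrays, with log2 differences of -0.97 (SE 0.51) and -1.26 (SE 0.51), which did not pass the test over all probes (limma, adjusted p = 0.424 and 0.233). The LON pool of day 5 had the highest Gpd1 signal of all groups, 1780, 2500 and 2500, above every Control array of that age, but the log2 difference of 1.20 (SE 0.51) was not called either (adjusted p = 0.33).

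The error of Gpd1 was set largely by single LON arrays. At day 56 its LON values were 122, 1340 and 1570, and at day 21 they were 404, 1040 and 1270. The SD of log2 signal was 2.07 in the LON pool of day 56 and 0.88 in that of day 21, against a median of 0.276 over the groups.

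Gpam encodes the mitochondrial glycerol-3-phosphate acyltransferase, which attaches the first fatty acid. Its Control values were 0.842, 2.10 and 2.72 at day 5, 1.34, 1.44 and 1.79 at day 10, 1.66, 2.12 and 9.33 at day 21, 2.08, 2.84 and 3.13 at day 56, and 1.26, 1.44 and 2.27 at day 112. In LUN mice they were 0.575, 0.881 and 1.45 at day 5, 0.686, 1.98 and 15.7 at day 10, 3.83, 4.68 and 5.78 at day 21, 3.29, 3.30 and 6.17 at day 56, and 1.12, 1.19 and 1.32 at day 112. The LUN arrays of days 21 and 56 were thus above those of day 112 without overlap. Single arrays with the highest value set the mean at LUN day 10 and at Control day 21. Gpam was called in 0 of 10 diet comparisons and 0 of 12 age steps, and its largest log2 difference between diets was -0.90 (SE 0.64) in LUN mice at day 5 (limma, adjusted p = 0.584). Its largest age step was a log2 difference of -1.75 (SE 0.64) from day 56 to day 112 in LUN mice (adjusted p = 0.157). On some arrays the Gpam probe read below the median of all probes, as on LUN day 5 replicate 1 (raw intensity 483 against 705.5). The lack of calls is therefore no measure of a steady Gpam level.

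Agpat2 encodes an acyltransferase that attaches the second fatty acid and turns lysophosphatidate into phosphatidate, and loss of its human counterpart causes a congenital lack of body fat. Because it moved with both diet and age, the 250 bases before its RefSeq start site are shown (GRCm38.p6, chr2:26604418-26604667, minus strand, 5′ to 3′), with GC boxes in capitals.

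Agpat2: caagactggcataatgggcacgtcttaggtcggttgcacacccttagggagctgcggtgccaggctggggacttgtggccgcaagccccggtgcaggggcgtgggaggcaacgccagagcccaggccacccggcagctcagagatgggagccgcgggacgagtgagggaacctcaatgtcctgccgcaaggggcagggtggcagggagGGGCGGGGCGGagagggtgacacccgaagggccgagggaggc

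The window holds 2 copies of the GC box GGGCGG, which overlap by their shared end base and begin 42 and 37 bases before the start site. The same letters, on either strand, were found in 32.7% of 32851 windows of this length. A CCAAT box, a TATA box (searched as TATAAA), an E-box (searched as CACGTG) and the half-site of the glucocorticoid receptor (searched as TGTTCT) were not found in this window on either strand.

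In Control mice Agpat2 read 221, 269 and 349 at day 5, 121, 146 and 230 at day 10, 233, 242 and 280 at day 21, 421, 433 and 521 at day 56, and 609, 755 and 827 at day 112. The Control arrays of day 56 lay above all those of the suckling ages, and those of day 112 above those of day 56. In LUN mice it read 50.9, 60.5 and 77.3 at day 5, 79.5, 86.4 and 96.5 at day 10, 56.1, 59.9 and 82.3 at day 21, 390, 578 and 590 at day 56, and 381, 553 and 655 at day 112. The LUN and Control arrays did not overlap at days 5, 10 and 21. Agpat2 was 4.44-fold lower in LUN mice at day 5 (log2 difference -2.15, SE 0.30, limma adjusted p = 3.79e-05) and 3.85-fold lower at day 21 (-1.95, SE 0.30, adjusted p = 5.86e-05). At day 10 the log2 difference was -0.87 (SE 0.30) and was not called (adjusted p = 0.186), at day 56 it was 0.16 (SE 0.30, adjusted p = 0.999), and at day 112 it was -0.49 (SE 0.30, adjusted p = 0.493).

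The LUN difference of Agpat2 itself was compared between days 21 and 56. The log2 difference between LUN and Control was higher by 2.11 (SE 0.42) at day 56 than at day 21, which passed the test (limma, adjusted p = 0.00459), but under median scaling in place of quantile normalization this value was 1.43 and was not called (adjusted p = 0.122), with a median of all probes of -0.28. Within LUN mice Agpat2 rose 7.84-fold from day 21 to day 56 (log2 difference 2.97, SE 0.30, adjusted p = 1.36e-08).

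In LON mice Agpat2 read 326, 580 and 620 at day 5, 84.3, 88.8 and 101 at day 10, 204, 245 and 539 at day 21, 337, 366 and 408 at day 56, and 541, 677 and 818 at day 112. The arrays of day 10 were below those of every other LON age. It fell 5.38-fold from day 5 to day 10 (log2 difference -2.43, SE 0.30, adjusted p = 1.33e-06) and rose 3.30-fold from day 10 to day 21 (1.72, SE 0.30, adjusted p = 0.000361). Against Control mice of the same age, its log2 differences in LON mice were 0.83, -0.81, 0.26, -0.31 and -0.11 from day 5 to day 112 (SE 0.30 each), and none of them was called.

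Lpin1 encodes lipin 1, a phosphatidate phosphatase that makes diacylglycerol and also acts as a transcriptional co-regulator, and mice without it have little adipose tissue. The 250 bases before its RefSeq start site are shown because Lpin1 had the steepest rise during suckling of the 6 genes (GRCm38.p6, chr12:16610967-16611216, minus strand, 5′ to 3′), with a glucocorticoid receptor half-site in capitals.

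Lpin1: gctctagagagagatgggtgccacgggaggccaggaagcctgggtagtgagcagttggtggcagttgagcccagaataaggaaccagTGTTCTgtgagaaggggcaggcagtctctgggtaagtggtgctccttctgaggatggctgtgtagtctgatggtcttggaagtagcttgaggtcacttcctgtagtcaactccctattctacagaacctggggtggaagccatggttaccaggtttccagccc

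The half-site TGTTCT begins 163 bases before the start site and was present, on either strand, in 16.1% of the windows. The GC box, the CCAAT box, the TATA box and the E-box were not found in this window on either strand, while the CCAAT box was held by 33.8%, the TATA box by 12.4% and the E-box by 6.02% of all windows. Such matches describe letters only.

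Lpin1 read 4.02, 4.91 and 9.75 in Control mice at day 5, 4.12, 4.15 and 6.23 at day 10, 6.79, 8.23 and 10.9 at day 21, 9.44, 12.0 and 13.0 at day 56, and 5.11, 9.88 and 10.7 at day 112. In LUN mice it read 4.68, 5.53 and 5.75 at day 5, 2.82, 3.43 and 4.36 at day 10, 20.1, 24.7 and 29.0 at day 21, 8.24, 11.8 and 11.9 at day 56, and 9.97, 10.6 and 11.3 at day 112. The LUN arrays of day 21 were higher than the arrays of all other groups. From day 10 to day 21 Lpin1 rose 6.99-fold in LUN mice (log2 difference 2.81, SE 0.56, limma adjusted p = 0.00152), and the same step was 0.84 (SE 0.56) in Control mice (adjusted p = 0.506). The difference between these steps, 1.96 (SE 0.79), did not pass the test (adjusted p = 0.299). At day 21 all LUN arrays lay above all Control arrays, with a log2 difference of 1.52 (SE 0.56) that was not called (adjusted p = 0.166).

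In LON mice Lpin1 spread widely at days 21 and 56, at 2.20, 11.3 and 12.7 and at 1.25, 5.98 and 18.1. At day 112, after the high fat diet, its LON values were 15.7, 16.3 and 19.2. They were above the Control values of that age without overlap, and the log2 difference of 1.06 (SE 0.56) was not called (adjusted p = 0.358).

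Dgat1 and Dgat2 are unrelated acyltransferases that both attach the third fatty acid to diacylglycerol. DGAT1 is known for re-esterifying fatty acids taken up or released by lipolysis, and DGAT2 for using newly made fatty acids. In LUN mice of the suckling ages Dgat2 was called lower than in Control, while the log2 differences of Dgat1 were above 0 and were not called.

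Dgat2 read 276, 294 and 502 in Control mice at day 5, 384, 455 and 569 at day 10, 536, 555 and 586 at day 21, 796, 1000 and 1440 at day 56, and 821, 1130 and 1230 at day 112. In LUN mice it read 56.4, 72.1 and 73.9 at day 5, 112, 129 and 164 at day 10, 182, 243 and 252 at day 21, 821, 1000 and 2500 at day 56, and 844, 917 and 1280 at day 112. At the 3 suckling ages each LUN array was below each Control array, and later the groups overlapped. Dgat2 was 5.14-fold lower in LUN mice at day 5 (log2 difference -2.36, SE 0.31, limma adjusted p = 1.33e-05), 3.46-fold lower at day 10 (-1.79, SE 0.31, adjusted p = 0.00065) and 2.50-fold lower at day 21 (-1.32, SE 0.31, adjusted p = 0.0104). The call of day 21 was lost under median scaling (-0.86, adjusted p = 0.216) and without LUN replicate 1 of that age (-1.18, adjusted p = 0.0717).

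The log2 difference of Dgat2 was 0.28 at day 56 and -0.07 at day 112 (SE 0.31 each), and neither was called. From day 21 to day 56 Dgat2 rose 5.69-fold within LUN mice (2.51, SE 0.31, adjusted p = 6.47e-07), and the LUN difference was higher by 1.60 (SE 0.44) at day 56 than at day 21, just short of the threshold (adjusted p = 0.0551). In LON mice it read 493, 506 and 664 at day 5, 209, 301 and 335 at day 10, 340, 403 and 566 at day 21, 854, 931 and 949 at day 56, and 1050, 1270 and 1390 at day 112. The LON arrays of day 10 were below the Control arrays of that age, with a log2 difference of -0.75 (SE 0.31, adjusted p = 0.613). The LON arrays of days 56 and 112 were above all those of the suckling ages.

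Dgat1 read 67.5, 88.9 and 105 in Control mice at day 5, 61.9, 73.6 and 74.4 at day 10, 72.1, 82.0 and 83.5 at day 21, 105, 111 and 114 at day 56, and 72.7, 88.4 and 103 at day 112. In LUN mice it read 135, 145 and 156 at day 5, 96.5, 115 and 118 at day 10, 121, 132 and 141 at day 21, 96.2, 98.1 and 174 at day 56, and 57.0, 67.6 and 76.4 at day 112. All LUN arrays were above all Control arrays at the 3 suckling ages. The log2 differences of 0.76, 0.65 and 0.73 at days 5, 10 and 21 (SE 0.22 each) were not called (limma, adjusted p = 0.0714, 0.168 and 0.0607). From day 56 to day 112 Dgat1 fell 1.78-fold in LUN mice (-0.83, SE 0.22, adjusted p = 0.0275). This call rested on few arrays, since without LUN day 56 replicate 1 the difference was -0.55 (adjusted p = 0.27), without LUN day 112 replicate 1 it was -0.72 (adjusted p = 0.16) and without LUN day 112 replicate 2 it was -0.84 (adjusted p = 0.0742).

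In LON mice Dgat1 read 177, 203 and 247 at day 5, 66.2, 80.1 and 90.4 at day 10, 83.7, 91.8 and 92.8 at day 21, 92.3, 103 and 147 at day 56, and 84.5, 91.0 and 105 at day 112. The arrays of day 5 were above those of all other groups. Dgat1 was 2.41-fold higher in LON than in Control mice at day 5 (log2 difference 1.27, SE 0.22, adjusted p = 0.000463) and fell 2.65-fold from day 5 to day 10 (-1.41, SE 0.22, adjusted p = 5.53e-05).

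**Figure D2:**
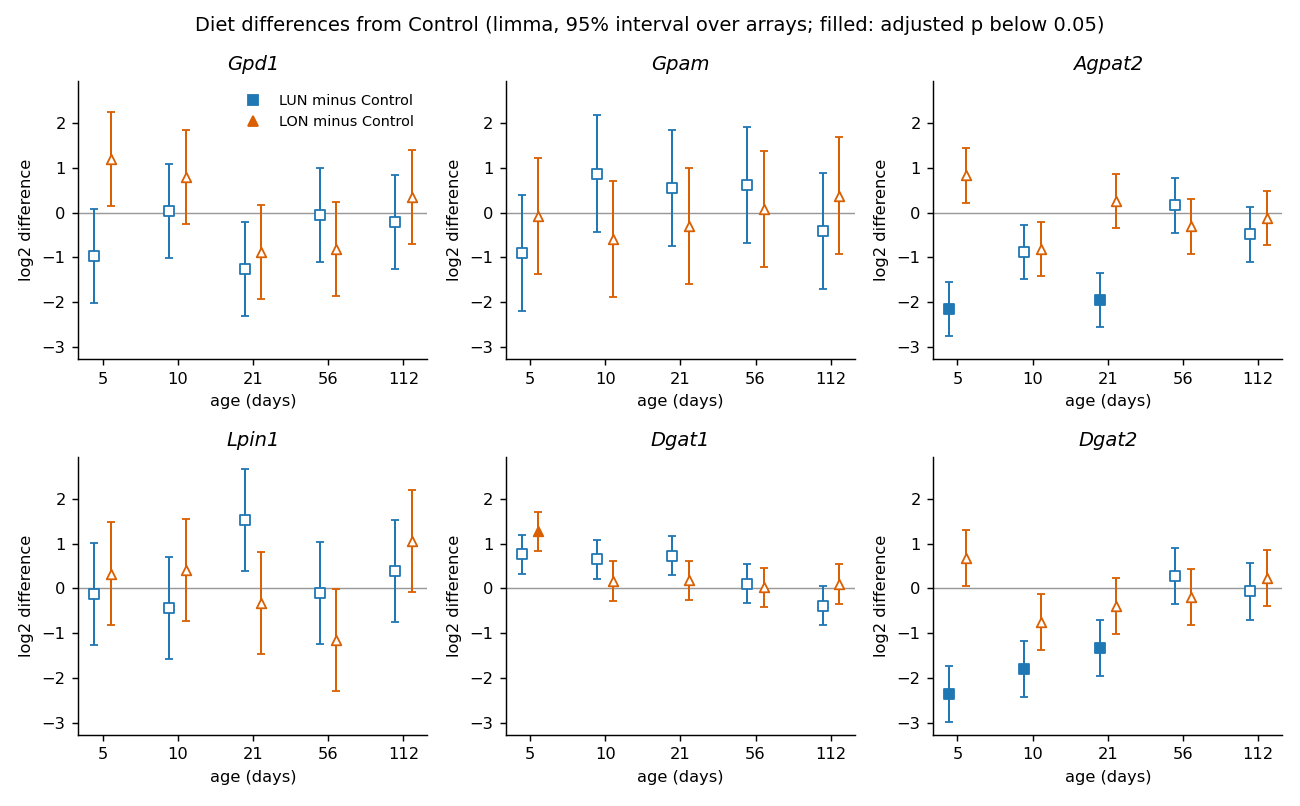
Log2 difference (y axis) between LUN (blue squares) or LON (orange triangles) and Control at each age in days (x axis), with 95% intervals of the array fit and filled symbols where the adjusted p was below the threshold. Agpat2 and Dgat2 were called lower in LUN mice at day 5 (-2.15 and -2.36) and day 21 (-1.95 and -1.32), Dgat2 also at day 10 (-1.79), and Dgat1 was called higher in LON mice at day 5 (1.27).

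To describe at which ages these genes were called, the calls were counted at each age and set beside the share of all probes that were called. The 6 genes were chosen with earlier results of these data known, so the counts describe them and do not test them as a group. For LUN against Control, 2 of the 6 genes (Agpat2 and Dgat2) were called at day 5, when 1.41% of 33012 probes were called in either direction. Only Dgat2 was called at day 10, with 1.39% of all probes, and Agpat2 and Dgat2 were called at day 21, with 2.71% of all probes. At day 56 and day 112, 0 of the 6 were called, with 0.203% and 0.551% of all probes. The median log2 difference of the 6 genes was -0.94, -0.20, -0.35, 0.13 and -0.29 from day 5 to day 112, while that of all probes stayed between -0.03 and 0.05. For LON against Control, 1 of the 6 genes (Dgat1) was called at day 5, with 1.77% of all probes. None of the 6 was called at day 10 (0.739% of all probes), day 21 (1.40%), day 56 (1.54%) or day 112 (2.38%). Over all ages and both conditions this came to 6 calls in 60 tests, 3 of Dgat2, 2 of Agpat2 and 1 of Dgat1, and 0 of Gpd1, Gpam and Lpin1. When limma was fitted to the arrays of the compared groups alone, 0 of these 6 calls remained, and the adjusted p values were between 0.0961 and 0.366.

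Across ages, 0 of the 6 genes were called in any age step of the Control mice, from day 5 to 10 (0.351% of all probes), 10 to 21 (5.04%), 21 to 56 (3.29%) or 56 to 112 (3.37%). From day 21 to 56 in Control mice, the log2 differences of Agpat2, Dgat1 and Dgat2 were 0.86, 0.47 and 0.91, with an unadjusted p below 0.05, as for 13.5% of all probes. Under median scaling these 3 were called, with 4.62% of all probes, and the median of all probes was then 0.195. In LUN mice the counts were 0 from day 5 to 10 (1.04% of all probes), 1 from 10 to 21 (Lpin1, 4.25%), 2 from 21 to 56 (Agpat2 and Dgat2, 6.43%) and 1 from 56 to 112 (Dgat1, 2.66%). In LON mice they were 2 from day 5 to 10 (Agpat2 and Dgat1, 2.82%), 1 from 10 to 21 (Agpat2, 2.56%), 0 from 21 to 56 (1.86%) and 0 from 56 to 112 (2.31%). The LON step from day 21 to 56 moved Dgat2 by 1.09 (SE 0.31) and missed the threshold (adjusted p = 0.0582). Without LON day 21 replicate 3, Dgat2 was called in that step.

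A change of the diet difference itself was tested between neighbouring ages. For LUN, 0 of the 6 genes were called for day 21 minus day 10 (1.19% of all probes) and 1, Agpat2, for day 56 minus day 21 (1.39%). For LON, 0 were called for day 21 minus day 10 (0.376%) and 0 for day 56 minus day 21 (0.348%).

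When the 15 pools, not the arrays, were the replicates, no gene of the 6 was called. Each diet had a single pool at each age, so the error of this fit also held any change of a diet difference with age. It was not a measure of the spread between pools alone. For LUN against Control over the 5 ages, where 0.00% of probes were called, the log2 difference was -1.06 (SE 0.42) for Agpat2 and -1.05 (SE 0.41) for Dgat2, with unadjusted p values of 0.0267 and 0.0234 and an adjusted p of 0.765 for both in limma. For LON against Control (0.215% of probes called) the differences of the 6 genes lay between -0.10 and 0.35. In a fit that separated the suckling ages from the later ones, added after the values had been seen, the LUN difference over the pools of days 5, 10 and 21 (0.00909% of probes called) was -1.83 (SE 0.38) for Dgat2, -1.66 (SE 0.45) for Agpat2 and 0.71 (SE 0.28) for Dgat1, with adjusted p values of 0.335, 0.468 and 0.605. Over the pools of days 56 and 112 (0.00% of probes called) the LUN differences of the 6 genes were between -0.16 and 0.13. In this fit the LUN difference of Agpat2 was higher by 1.49 (SE 0.71) over the later than over the suckling ages and was not called (adjusted p = 0.846, with 0.00% of probes called). For the age steps over the 3 diets none of the 6 was called from day 5 to 10 (0.00% of probes), 10 to 21 (0.851%), 21 to 56 (0.460%) or 56 to 112 (0.379%), and the largest was Dgat2 from day 21 to 56, with 1.50 (SE 0.52, adjusted p = 0.339).

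Agpat2 and Dgat2 followed much the same course over the 15 group means, with a Pearson correlation of 0.908. Groups share ages and diets, and such coefficients describe the 15 pools. Of 7282 genes with a signal above the median and a range of at least 1 log2 unit, those most like Dgat2 were Slc2a4 (0.958), which encodes the insulin-responsive glucose transporter of fat and muscle, Dhx32 (0.947) and Cd274 (0.933). Those most like Agpat2 were Ankrd40 (0.968), Apobr (0.944), a receptor for lipoproteins that carry apolipoprotein B48, and Irs3 (0.925), an insulin receptor substrate of rodent adipocytes. Lpin1 was closest to Riok2 (0.866), Klf15 (0.861), a transcription factor induced by fasting and glucocorticoids, and Cbs (0.841), an enzyme of cysteine synthesis. Gpam was closest to Adtrp (0.842), Retsat (0.83), a retinol saturase of adipocytes, and Kcnk10 (0.812). Gpd1 was closest to Pdgfra (0.815), a receptor of preadipocytes, Sdr16c5 (0.809) and Memo1 (0.804). The best matches of Dgat1 were lower, with Riok3 (0.764), Iars2 (0.723) and Xpo1 (0.689). All these genes were picked as the highest of 7282 coefficients over 15 groups, a choice that by itself raises the coefficients. None of them was tested.

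Of 24 further genes of glycerolipid synthesis on a list, 17 had a probe with their symbol alone. Of their 170 diet comparisons 7 were called, while 0.203% to 2.71% of all probes were called in a diet comparison. In LUN mice Gpat3, a microsomal glycerol-3-phosphate acyltransferase prominent in fat, was the only one of the 17 called at day 5 (log2 difference -0.87, SE 0.23, limma adjusted p = 0.0405), and this call was lost without any one of the 6 arrays (adjusted p from 0.0536 to 0.195). At day 21 the LUN mice had a higher signal of Gpat4, a related microsomal enzyme (1.01, SE 0.28, adjusted p = 0.0373), and a lower signal of Gpd2, the mitochondrial glycerol-3-phosphate dehydrogenase, which oxidizes the product of Gpd1 (-0.80, SE 0.18, adjusted p = 0.00546). The Gpd2 difference was -0.42 under median scaling (adjusted p = 0.567). At days 10, 56 and 112, 0 of the 17 were called in LUN mice. The median log2 difference of the 17 genes in LUN mice was -0.45 at day 5, 0.03 at day 10 and 0.31 at day 21, against -0.94, -0.20 and -0.35 for the 6 genes and -0.01, -0.02 and 0.02 for all probes.

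In LON mice Fitm2, which is needed to form lipid droplets, was higher at day 5 (1.11, SE 0.26, adjusted p = 0.0166) and again at day 112 (1.29, SE 0.26, adjusted p = 0.00464). Gpat3 was called higher at day 112 (0.83, SE 0.23, adjusted p = 0.0404), but the difference was 0.40 without Control day 112 replicate 2 (adjusted p = 0.422). Acsl3, an acyl-CoA synthetase of lipid droplets, was called higher at day 21 (1.22, SE 0.28, adjusted p = 0.0163). At days 10 and 56, 0 of the 17 were called in LON mice. Only 2 of the 7 diet calls, Gpd2 in LUN mice at day 21 and Fitm2 in LON mice at day 112, were made with each array left out in turn.

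Of 204 tests of age steps in these 17 genes, 28 were called, and 19 of the 28 with each array left out in turn. In single age steps, 0.351% to 6.43% of all probes were called. From day 21 to day 56 the monoacylglycerol acyltransferases Mogat1 and Mogat2, which make diacylglycerol from monoacylglycerol, rose in each diet. The log2 differences were 2.92 and 3.11 in Control, 3.05 and 3.09 in LUN, and 2.75 and 2.30 in LON mice, and over the pools of the 3 diets they were 2.91 (SE 0.27) and 2.83 (SE 0.32), with adjusted p values of 0.00114 and 0.00317. The mean signal of Mogat2 was only at the 54.81 percentile of all probes, so its low values lie near the middle of the array or below. Its LON call was made in 4 of 6 fits with an array left out. Gpd2 rose from day 10 to day 21 by 2.71 in Control, 1.86 in LUN and 2.22 in LON mice (pools 2.26, SE 0.26, adjusted p = 0.00263). It fell from day 56 to day 112 with log2 differences of -2.02, -2.27 and -2.37 (pools -2.22, SE 0.26, adjusted p = 0.00307). These 4 pool results kept their size without the Control pools, at 2.90, 2.69, 2.04 and -2.32, but were then not called (adjusted p between 0.174 and 0.226), and all 4 calls were also lost without the LON pools and 3 of them without the LUN pools.

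Further steps called with each array left out were those of Fitm2 (2.20) and Gpat4 (1.31) from day 10 to 21 in LUN mice, of Gpat4 from day 21 to 56 in LUN mice (-1.23), of Gpat3 from day 5 to 10 in LON mice (-1.70), and of Acsl3 from day 56 to 112 in Control mice (2.09). Gpd2 was also higher at day 10 than at day 5 in LUN (0.92) and LON mice (1.00), and at day 56 than at day 21 in LUN mice (0.78), and these 3 calls were lost under median scaling (0.47, 0.56 and 0.75). The LUN difference itself shifted for Fitm2 between days 10 and 21 (1.62, SE 0.37, adjusted p = 0.0162) and for Gpd2 between days 21 and 56 (1.06, SE 0.25, adjusted p = 0.0197), and these were lost without single arrays (highest adjusted p = 0.0768 and 0.0696). The value of Fitm2 was 1.15 after cyclic loess (adjusted p = 0.0571), and that of Gpd2 was 0.35 under median scaling (adjusted p = 0.727).

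**Figure D3:**
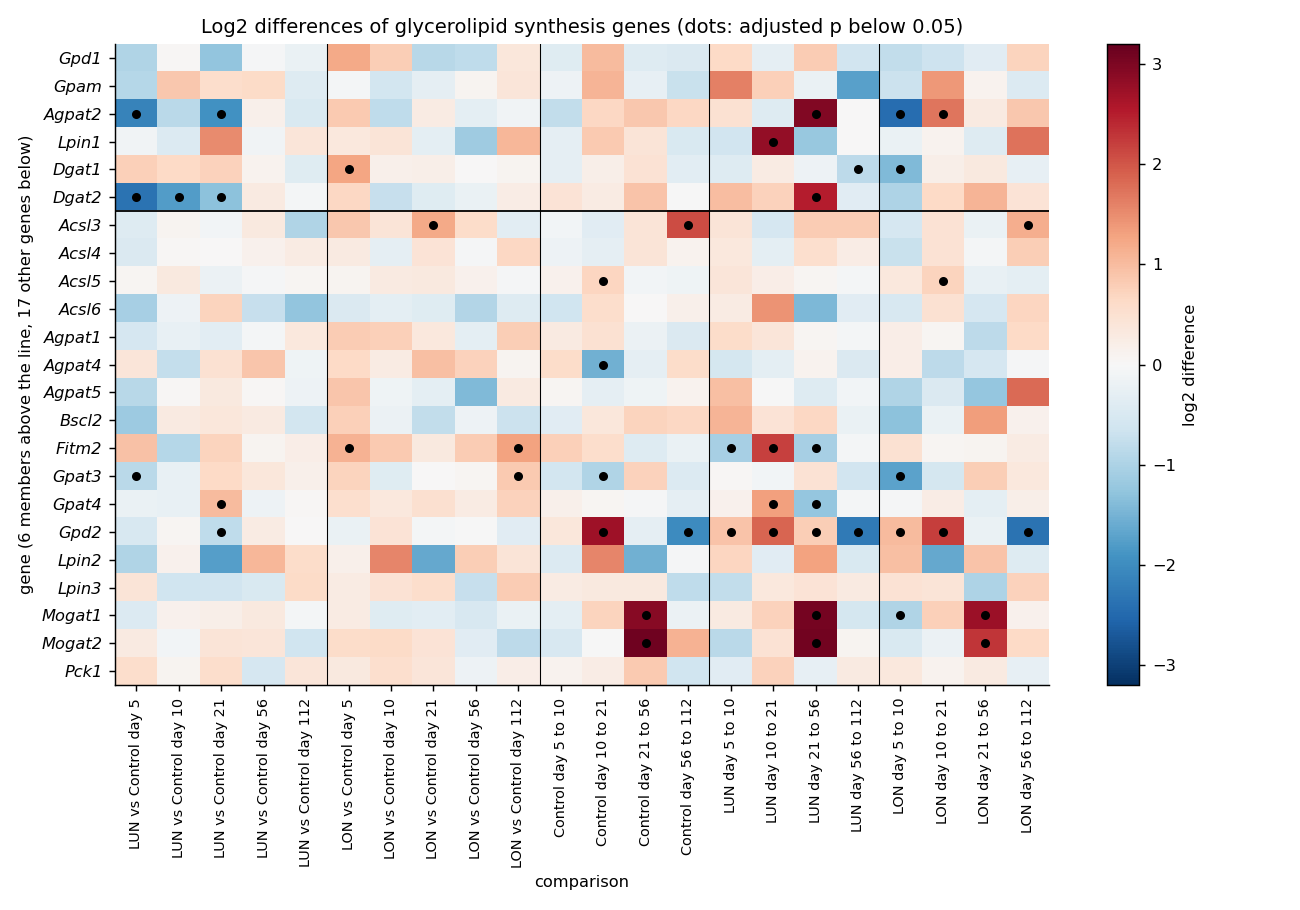
Log2 differences (colour scale) of the 6 genes (above the line) and 17 other glycerolipid synthesis genes (below) in the 10 diet comparisons and 12 age steps (columns), with dots where the adjusted p was below the threshold. Mogat1 and Mogat2 are called higher from day 21 to 56 in each diet, and Gpd2 lower from day 56 to 112 in each.

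Markers of the cells in the depot were read beside these values. Of 12 listed adipocyte markers 8 had a probe with their symbol alone, and Fabp4 and Pparg were bright, with mean signals at the 99.72 and 96.66 percentile. In LUN mice 2 of the 8, Slc2a4 and Lep (leptin), were called lower at day 5, when 1.41% of all probes were called. Lep alone was called lower at day 10 (1.39% of all probes) and at day 21 (2.71%). The median log2 difference of the 8 markers was -0.47, -0.71 and -0.14 at days 5, 10 and 21, against -2.15, -0.87 and -1.95 for Agpat2 and -2.36, -1.79 and -1.32 for Dgat2. Fabp4 and Pparg had log2 differences of -0.87 and -0.47 at day 5 and of -0.12 and -0.17 at day 21, and none of these was called. Above 0, and not called, were Plin1 (0.52) and Retn (0.15) at day 5 and Cidec (1.20) and Plin1 (0.15) at day 21. The rest of the 8 were below 0 at these ages. Over the arrays, the summed signal of the 8 markers ranged from 715000 to 1150000 units in LUN and from 1300000 to 1750000 in Control mice at day 5, and from 1020000 to 1490000 against 1010000 to 1580000 at day 21. Fabp4, the brightest of the 8, weighs most in this sum. The mean log2 signal, in which each marker counts alike, was 14.77 to 14.97 in LUN against 15.57 to 15.8 in Control mice at day 5. At day 21 it was 14.5 to 14.8 against 15.45 to 15.5, with a log2 difference of -5.83 for Lep.

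Of 5 brown adipocyte markers, all measured, 2 (Ucp1 and Cidea) were called lower in LUN mice at day 5 (1.41% of all probes) and 1 (Ucp1) at day 21 (2.71%). Their median log2 differences were -1.11 and -0.78, and their summed signals ranged from 306000 to 315000 units in LUN against 505000 to 635000 in Control mice at day 5, and from 1870000 to 2090000 against 3360000 to 4120000 at day 21. At day 10, 0 of the 5 were called (1.39% of all probes), and their median log2 difference was 0.62. Their summed signal was higher, from 933000 to 1320000 units in LUN against 757000 to 874000 in Control mice. Elovl3, a fatty acid elongase of brown fat, had log2 differences of 0.69, 1.25 and 1.72 at days 5, 10 and 21, none of them called.

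Of 11 skeletal muscle markers 9 were measured, and their signal differed between pools with no common order of diet. From day 5 to day 112, their median log2 difference from Control was 0.58, 2.20, -1.70, 3.48 and -2.35 in LUN mice, and in LON mice it was -0.04, 3.63, -1.42, 5.14 and -4.39. The summed muscle signal at day 10 was 1150000 to 1210000 units in LUN, 2590000 to 2930000 in LON and 243000 to 297000 in Control mice. In LUN mice Atp2a1 alone of these markers was called higher than in Control at day 5 (1.41% of all probes). At day 10 every measured muscle marker was called higher (1.39%), and at day 21 all but Mb were called lower (2.71%). The part of the muscle markers in the values of Agpat2 and Dgat2 was not tested.

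Of 7 markers of mammary and skin epithelium 6 were measured. In LON mice at day 5, where Dgat1 was called higher, 3 of the 6 were called higher (1.77% of all probes were called). They were the basal keratins Krt5 (log2 difference 4.50) and Krt14 (3.08) and the epithelial adhesion gene Epcam (2.57). The summed epithelial signal of that age was 80700 to 95100 units in LON, 8960 to 12000 in Control and 3590 to 9670 in LUN mice. In LON mice of day 10 it was 43800 to 48600 units. In LUN mice Krt5 and Krt14 were called lower at day 5 (-2.22 and -2.56), 0 of the 6 were called at day 10, and Krt5 was called higher at day 21 (1.97). At LON day 5, 0 of the 8 adipocyte markers were called, with 1 brown adipocyte marker higher (Elovl3, 2.37) and 1 muscle marker lower (Pvalb, -1.73).

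Of the markers of macrophages (4 of 6 measured), lymph node (6 of 7), endothelium (4 of 4), liver (4 of 5) and fibroblasts with preadipocytes (5 of 5), 0 were called in LUN mice at day 5 or in LON mice at day 5. Of these lists Alb, of liver, was called lower in LUN mice at day 10 (-2.15) and higher at day 21 (2.59), and Cd14, of macrophages, was called higher at day 21 (1.15). The part of the markers of any cell type in the values of the 6 genes was not tested.

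**Figure D4:**
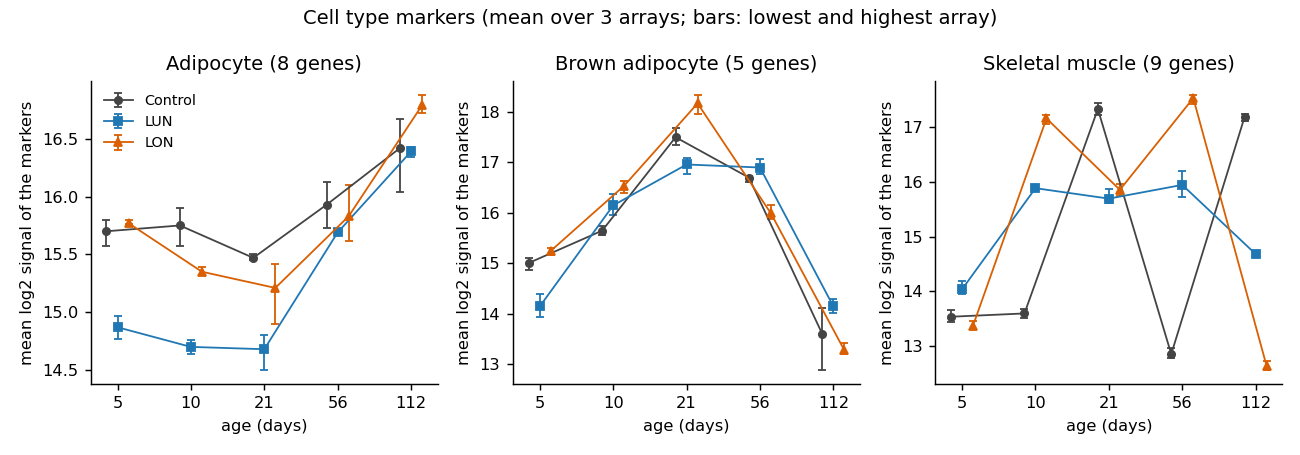
Mean log2 signal (y axis) of 8 adipocyte, 5 brown adipocyte and 9 skeletal muscle markers against age in days (x axis) in Control (grey), LUN (blue) and LON (orange) mice, with bars from the lowest to the highest of 3 arrays. The muscle markers differ most between pools, with a median log2 difference of 5.14 between LON and Control mice at day 56 and of -4.39 at day 112.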

How the data were processed

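The intensity values were deposited by the authors as raw signals of Applied Biosystems Mouse Genome Survey arrays (chemiluminescence of DIG-labelled cRNA); the scanner's background step is not given in the sources used. The deposited log2 values were quantile-normalized by the authors in Bioconductor, and in them the LON arrays share a median of 9.8146 against 9.7794 to 9.7842 in the others. In the raw data the labels of the LON arrays end in a number, and those of the Control and LUN arrays in a number with a letter. Whether the LON arrays were run or normalized apart is not given in the sources used. Such a step could not be told apart from the LON condition itself. The deposited values served as an alternative. The raw medians per array ranged from 545 to 1459, and the number of arrays limits the precision.

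All 45 arrays were quantile-normalized together, taken to log2 without an offset and fitted with a mean per group in limma 3.58.1 (R 4.3.3). Tests were two-sided, with Benjamini-Hochberg adjustment over 33012 probes and a threshold of 0.05. Genes were named from GEO's probe annotation with symbols updated through RefSeq: 14411 probes carry 1 symbol, 247 several and 18354 none. A second fit used the 15 pool means, with age and diet as terms. The 6 genes were named in every comparison, up to 4 called genes of the list of 24 were named by size of change, and 3 genes most like each of the 6 by Pearson correlation. The 6 genes and the lists were chosen with earlier results of these data known. The list held Gpat2, Gpat3, Gpat4, Agpat1, Agpat3, Agpat4, Agpat5, Lclat1, Lpin2, Lpin3, Mogat1, Mogat2, Gk, Gpd1l, Gpd2, Pck1, Acsl1, Acsl3, Acsl4, Acsl5, Acsl6, Fitm1, Fitm2 and Bscl2; Gpat2, Agpat3, Lclat1, Gk, Gpd1l, Acsl1 and Fitm1 had no probe with their symbol alone and were not analysed here. Promoters came from RefSeq's table for GRCm38.p6, which matched 3 of the 6 genes. The fits were tested on simulated data, and figures were drawn with matplotlib.

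Alternatives were cyclic loess, the deposited values, an offset of 100, median scaling, only probes above the median signal, the replicate number as a block, an intensity trend, only the arrays compared, the methods' t-test and each array or pool left out. No other probe of the 6 genes was there to try.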

Additional observations from a re-analysis of the deposited data

Results flagged for a closer look

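The change of the LUN difference of Agpat2 from Control between day 21 and day 56 was itself tested. The log2 difference was higher by 2.11 (SE 0.42) at day 56 than at day 21 (limma, adjusted p = 0.00459), and the LUN arrays of Agpat2 lay below all Control arrays at day 21 and overlapped with them at day 56. Under median scaling the value was 1.43 and was not called (adjusted p = 0.122), and with pools as replicates the difference over the later ages was higher by 1.49 (SE 0.71) than over the suckling ages (adjusted p = 0.846). Among the other genes of the pathway, the LUN difference of Fitm2 was higher by 1.62 at day 21 than at day 10, and that of Gpd2 by 1.06 at day 56 than at day 21. The call of Fitm2 was made in 9 of 12 fits with an array left out and was lost after cyclic loess (1.15, adjusted p = 0.0571) and with only the compared arrays (adjusted p = 0.229). The value of Gpd2 was 0.35 under median scaling (adjusted p = 0.727). Groups of 3 arrays were too small to test whether an array stood apart from its group.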

How the results depend on the processing

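Of 3420 values of the 6 genes under other settings, 3321 kept their direction and side of the threshold, or were uncalled in both (157 of these changed sign), 29 lost a call, 70 gained one and 0 turned a called direction; of 570 counts of called genes 511 kept to within 1.5 times. In the diet comparisons the median log2 difference of all probes lay between -0.10 and 0.06, and under median scaling between -0.24 and 0.19. Median scaling gave 2 of the 6 called in LUN at day 10, 3 in the Control step from day 21 to 56, 0 and 2 in the LUN and LON steps from day 56 to 112, and 0 for the LUN change from day 21 to 56, for which cyclic loess, an offset of 100, probes above the median signal, an intensity trend and the removal of the 3 arrays of lowest correlation, chosen after seeing the data, each gave 2 (Agpat2 and Dgat2). Cyclic loess, bright probes, the trend and that removal gave 1 in the LON step from day 21 to 56, and the removal gave 2 in that from day 56 to 112. The removed arrays were Control day 112 replicate 2, LUN day 5 replicate 3 and LON day 21 replicate 3. Their mean correlations within the group were 0.806, 0.850 and 0.856. Over the 3 Control arrays of day 112, which read 1 pool, the summed fibroblast and preadipocyte signal ranged from 37200 to 1340000 units. With only the compared arrays, the counts were 0 in LUN at days 5, 10 and 21, in LON at day 5, in the LUN step from day 56 to 112 and the LON step from day 10 to 21, and 1 in the LUN step from day 21 to 56 and the LON step from day 5 to 10. The methods' t-test after adjustment gave 0 in LUN at days 5 and 10 and LON at day 5, 1 in LUN at day 21, 1 in the Control step from day 10 to 21 and the LUN step from day 21 to 56, and 0 in the LUN step from day 56 to 112 and the LON steps from day 5 to 10 and 10 to 21. The gene called in LUN at day 21 (0.382% of all probes) was Gpd1, and Agpat2 and Dgat2 were not called there. Gpd1 was also the gene called in the Control step from day 10 to 21 (1.61%). Unadjusted, the t-test gave 4, 3 and 5 in LUN at days 5, 10 and 21, and 2, 3 and 1 in LON at days 5, 10 and 112, where between 6.49% and 13.6% of all probes passed in the diet comparisons. Its unadjusted counts for age steps were 2, 4 and 1 in Control from day 10 on, 4 and 2 in LUN up to day 21, and 4, 2, 1 and 3 in LON, with 7.42% to 16.9% of all probes. With each array left out, counts ranged from 1 to 2 for LUN at day 21, its change from day 21 to 56 and its step from day 10 to 21, and from 0 to 1 for the LUN steps from day 5 to 10 and 56 to 112, LON at day 56 and the LON steps from day 21 to 56 and 56 to 112. With the replicate number as a block, which could not be tied to a shared origin of arrays (mean correlation of deviations -0.0031 for equal and 0.00177 for unequal numbers), the counts of the 6 genes were as without it, 2 in LUN at day 5, and Gpat3 lost its 2 diet calls and kept its 2 calls of age steps. Of 669 values of the other genes 128 lost a call, and Acsl5 turned from 0.69 to -0.0696 in the Control step from day 10 to 21 under median scaling. Causes were not tested. A second probe could not be tried, since each gene has 1.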
